A study of Arabidopsis thaliana with 50 samples.

Results

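The messenger RNAs of 10 chlorophyll biosynthesis genes of Arabidopsis thaliana were followed through 50 RNA-seq libraries of whole seedlings. The genes, chosen by their identifiers and not by their values, were *HEMA1* (AT1G58290), *GUN4* (AT3G59400), *CHLH* (AT5G13630), *CHLI1* (AT4G18480), *CHLD* (AT1G08520), *CHLM* (AT4G25080), *CAO* (AT1G44446), *PORA* (AT5G54190), *PORB* (AT4G27440) and *PORC* (AT1G03630). They are 10 of the 68527 features counted, of which 37338 are genes and 31189 are transposable elements, and all 10 were found in each file. The seedlings were Columbia-0 (Col-0) or mutants in that accession, were 8 days old, and came mostly from long days with 16 h of light. Long-day groups with 4 libraries each were Col-0, *med12* (the T-DNA line *cct-2*), *med13* (the T-DNA line *gct-2*), *SDC:GFP* wild type, *morc1* (the T-DNA line *morc1-4*) grown as the control for *morc1/med13*, *morc1/med13* (*gct-2* crossed into *morc1*), *ddc* (*drm1/drm2/cmt3*) and *ddc/med13* (a CRISPR-Cas9 frame-shift allele of *MED13*). A second *morc1* group, the control for *morc1/med12*, and *morc1/med12* itself (a CRISPR-Cas9 frame-shift allele of *MED12*) had 3 libraries each. The *SDC:GFP* reporter transgene was carried by the *SDC:GFP* wild type, *morc1*, *ddc* and all of their double and higher mutants, and by none of the Col-0, *med12* or *med13* groups. In the light experiment Col-0 and *med12* spent 7 days in long days and then 24 h in darkness, and 3 libraries of each were collected without any light, and 3 once the seedlings had had 15 min of light. Each mutant is a single allele or a single edited line.

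Chlorophyll is made in the plastid from glutamate. Glutamyl-tRNA reductase, the product of *HEMA1*, makes the first committed intermediate. Magnesium chelatase, built from CHLH, CHLI and CHLD and stimulated by GUN4, puts magnesium into protoporphyrin IX and so splits the chlorophyll branch from the heme branch. CHLM adds a methyl group. The protochlorophyllide oxidoreductases PORA, PORB and PORC then make chlorophyllide in a reaction that itself needs light. CAO, chlorophyllide a oxygenase, turns part of the product into the chlorophyll b precursor, and chlorophyll b is found mainly in the light-harvesting antenna. In Arabidopsis *PORA* mRNA is known for high levels in dark-grown seedlings and a fast loss in light, *PORB* for expression in both, and *PORC* for expression in light. MED12 and MED13 belong to the CDK8 kinase module of Mediator, the complex between transcription factors and RNA polymerase II, and MORC1 and the methyltransferases DRM1, DRM2 and CMT3 act in gene silencing.

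The promoters of *CAO*, *PORA* and *PORB* are shown because these genes gave the clearest contrasts of genotype or treatment, or, for *PORB*, because it is the close copy of *PORA* that did not follow it. The windows are the 250 bases before the annotated start in RefSeq's TAIR10.1, read 5′ to 3′ on the gene's strand. All 10 members were searched on both strands for the G-box (CACGTG), the evening element (AAAATATCT), the I-box (GATAAG) and CCAATC, and the matches are in capitals.
*CAO*, chr1:16851272-16851521, minus strand: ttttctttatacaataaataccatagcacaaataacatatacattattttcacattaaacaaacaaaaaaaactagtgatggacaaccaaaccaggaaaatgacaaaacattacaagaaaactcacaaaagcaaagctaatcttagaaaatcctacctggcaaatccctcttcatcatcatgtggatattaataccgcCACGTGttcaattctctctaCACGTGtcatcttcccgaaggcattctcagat
*PORA*, chr5:21992815-21993064, minus strand: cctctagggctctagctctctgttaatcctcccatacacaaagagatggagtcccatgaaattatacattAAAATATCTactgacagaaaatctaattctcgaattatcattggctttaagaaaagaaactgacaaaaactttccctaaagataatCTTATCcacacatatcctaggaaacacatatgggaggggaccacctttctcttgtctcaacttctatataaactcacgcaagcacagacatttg
*PORB*, chr4:13725296-13725545, plus strand: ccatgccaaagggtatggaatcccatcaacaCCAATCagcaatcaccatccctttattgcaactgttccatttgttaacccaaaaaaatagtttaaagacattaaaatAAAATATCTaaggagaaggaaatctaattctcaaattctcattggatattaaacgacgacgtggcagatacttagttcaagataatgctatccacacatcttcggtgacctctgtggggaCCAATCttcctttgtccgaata
The *CAO* window held 2 G-boxes, at 52 to 47 and at 32 to 27 bases before the start, and *CAO* was the only member with one. G-boxes were present in 1780 of 27443 windows of this length genome-wide (6.49%). The evening element stood 180 to 172 bases before the start of *PORA* and 142 to 134 before that of *PORB*, the only members with it, and in 648 of all windows (2.36%). *PORA* also held an I-box in reverse (CTTATC), a motif in 12.3% of all windows. CCAATC occurred 2 times in *PORB* and 1 time in *GUN4*, against 10.2% of windows. A match describes these letters in this window only.

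*PORA* and *PORB* are near copies, so reads of one could in principle be counted for the other. Their first 50 coding bases are shown because they were picked as the most alike stretch of that length. The rest of the coding sequence is less alike. The only base that differs between the copies in this stretch is in capitals.
*PORA*, coding bases 1 to 50: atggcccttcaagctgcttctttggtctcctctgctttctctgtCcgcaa
*PORB*, coding bases 1 to 50: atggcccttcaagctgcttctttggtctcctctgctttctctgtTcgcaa
Over the whole coding sequence *PORA* and *PORB* were 83.2% identical, *PORA* and *PORC* 73.8%, and *PORB* and *PORC* 73.5%. No 50-base stretch of any member's exons occurred anywhere else in the genome. The 4 Col-0 long-day libraries held between 134 and 153 CPM (counts relative to the TMM-scaled library total) of *PORB* but only 4 *PORA* counts in all, so little if any *PORB* signal was counted as *PORA*. *CHLD* shares bases on its own strand with a neighbouring gene, AT1G08530, and reads there were counted for neither gene. *GUN4*, *CHLI1*, *CHLM*, *CAO*, *PORB* and *PORC* overlap genes on the opposite strand, from which stranded counting separates them.

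The libraries held from 2767761 to 6786822 counts. The Col-0, *med12*, *med13* and light-experiment libraries held between 5696151 and 6786822, the *morc1/med12* set between 4479713 and 5212828, and the other 5 groups at most 3716245. A level of 3 counts corresponded to 0.421 to 1.17 CPM. *MED12* stood at 60.5 to 68.3 CPM in all 10 *med12* libraries and at 162 to 199 in the 10 Col-0 libraries of the same experiments, so these labels hold. *MED13* counts in *med13* (115 to 129 CPM) were not below those of Col-0 (104 to 113), and the edited *morc1/med12* line had 142 to 151 CPM of *MED12* against 125 to 136 in its control, so counts do not check these alleles. In the 4 groups of the light experiment the 3 libraries of a group differed, summed over sparsely covered genes, by about as much as counting noise. Chi-square per degree of freedom was 0.934 to 1.15, against 1.07 to 3.06 in the other groups. Over all features with at least 20 counts in a pair of libraries it was 0.585 to 0.793, which is below counting noise. The other groups had 0.867 to 5.77 by that measure. The cause was not tested. Seed transcripts were an exception, since the *med12* dark libraries held 54.4 to 121 CPM of *CRU3*, a seed storage protein gene. For most genes the p-values of these groups therefore cover no more than about counting error. Results on the 10 members are given also with the 3 libraries summed and counted as 1, the spread then coming from the other 10 groups. In those 10 groups *PORA* had at most 19 counts in a library. Summed tests therefore cannot decide whether *PORA* differed among the dark and light groups. The authors removed duplicate reads, which limits how many single-end reads a gene can keep per base. The members reached up to 0.704 counts per exonic base (*PORB*), so folds of the highest members can be understated, and CPM of such genes can be raised in shallow libraries. Levels were therefore tested within a set, except for dark against long days and for the differences between backgrounds, and across sets depth, set and genotype cannot be told apart. In whole seedlings fewer cells of a type and less RNA per cell also cannot be told apart. The 10 green-tissue markers were all present, with a summed level of 1355 to 1475 CPM in Col-0 in long days.

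Per kilobase of exon, 7 members stood between 54.6 and 87.4 CPM in Col-0 seedlings in long days, with *GUN4* and *CAO* lower and *PORA* far below. The mean level was 87.4 ± 4.97 CPM per kb for *PORB* (SD, n = 4) and 86.6 ± 2.17 for *CHLI1*, neighbours that did not differ beyond their spread. *CHLM* followed at 78.5 ± 3.90 and *CHLD* at 75.7 ± 2.11, again within their spread, and then *CHLH* at 69.4 ± 2.68. *HEMA1* at 55.0 ± 1.96 and *PORC* at 54.6 ± 2.23 CPM per kb could not be ordered either. *GUN4*, the chelatase activator, was at 28.8 ± 0.769, below every chelatase subunit, and *CAO* was at 15.0 ± 0.391. *PORA* was at 0.0957 ± 0.0773 CPM per kb, from 0, 2, 1 and 1 counts.

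The members differed widely in how far they moved over the 14 groups. *CHLD* moved least, from a group mean of 182 CPM in Col-0 after light to 273 in the *morc1* control of *morc1/med13*, a range of 1.502-fold, and *CHLM* covered 1.68-fold. *PORB* covered 2.20-fold, *CHLI1* 2.29-fold, *CHLH* 2.64-fold and *HEMA1* 2.66-fold. The genes with wider ranges were *GUN4* (37.4 to 138 CPM, 3.70-fold), *PORC* (36.0 to 192 CPM, 5.33-fold) and *CAO* (34.8 to 248 CPM, 7.14-fold), and *PORA* ran from 0.159 CPM in Col-0 in long days to 46.5 in Col-0 in the dark. Col-0 in long days had the lowest group mean of all 14 for *HEMA1*, *GUN4*, *CHLH*, *CAO* and *PORA*. For 7 of the 10 members the highest mean was in that *morc1* group, which is also one of the 5 shallow groups.

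**Figure D1:**
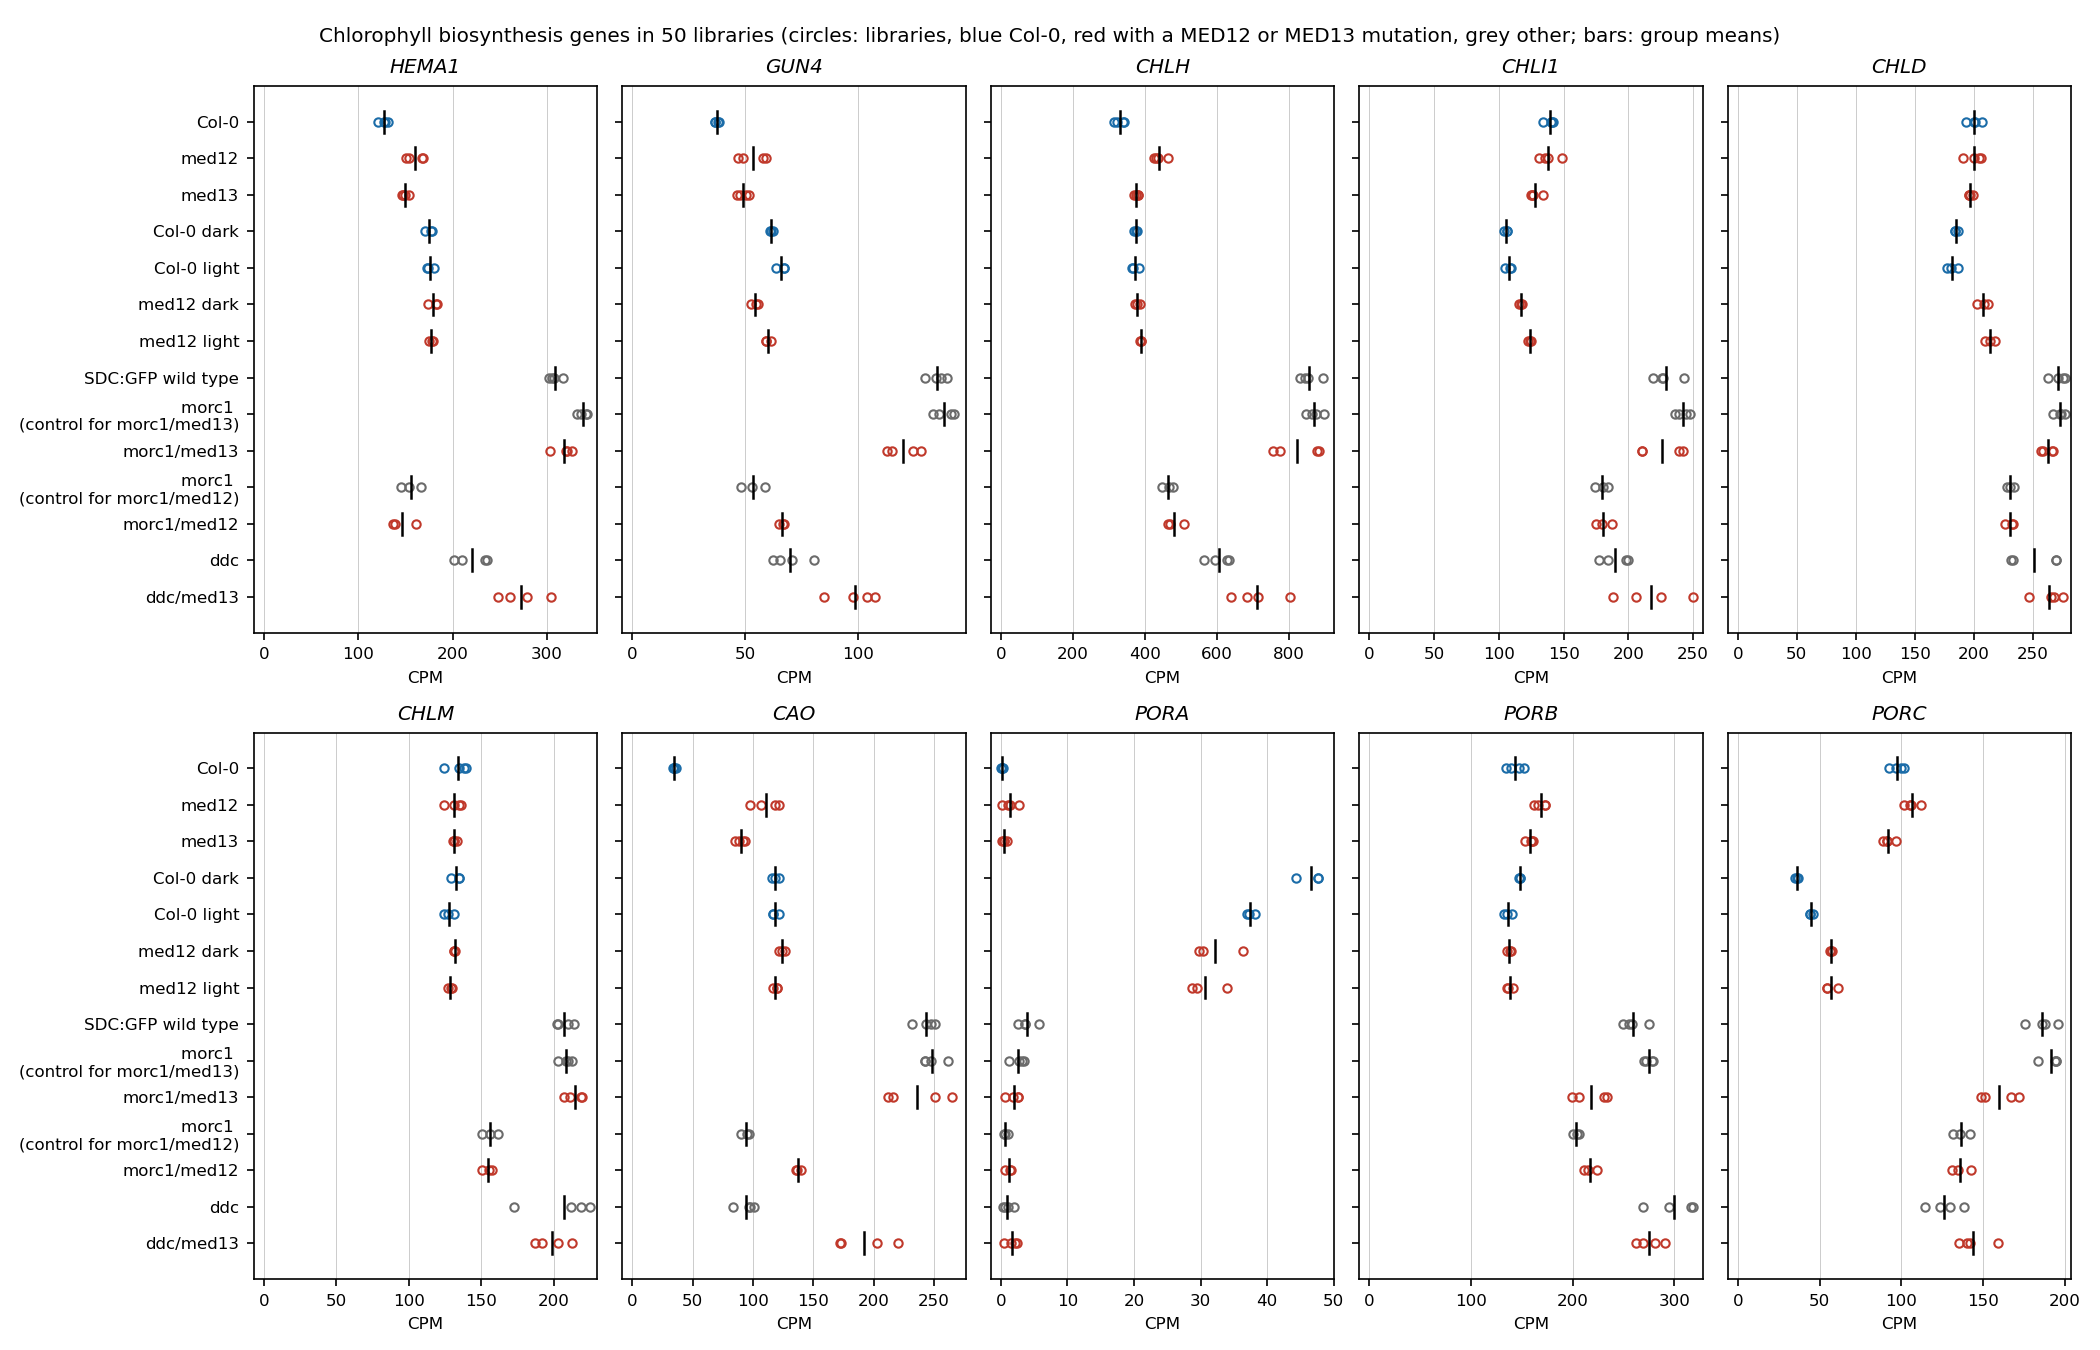
Level of each member in each of the 50 libraries, in CPM on a linear axis that starts at 0, by group; each point is 1 library, and colour marks Col-0, groups with a *med12* or *med13* mutation, and the remaining groups. *CAO* is near 35 CPM in Col-0 in long days and between 83.4 and 265 in every other group, and *PORA* is above 10 CPM only in the 4 dark and light groups.

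*CAO* separated *med12* and *med13* from Col-0 in long days, and no other tested member reached the 1.5-fold threshold. It was at 34.9, 34.7, 33.6 and 35.9 CPM in Col-0, at 122, 118, 107 and 97.6 in *med12*, and at 85.1, 93.2, 91.7 and 88.7 in *med13*. All 8 mutant libraries lay at more than 2 times the highest Col-0 library. *CAO* rose 3.22-fold in *med12* (log2 fold change 1.69, standard error 0.0681, adjusted p = 3.32e-09) and 2.61-fold in *med13* (1.38, 0.0699, adjusted p = 2.08e-08). It was the 1 member of 9 tested that was called in each comparison, where called means more than 1.5-fold with an adjusted p under 0.05. Over all features 12.8% were called in *med12* and 13.4% in *med13*. Of the 10 green-tissue markers *LHCB2.1*, a light-harvesting protein of photosystem II, was the only one called, and it moved with *CAO*. *LHCB2.1* stood at 30.7 ± 3.29 CPM in Col-0, 80.5 ± 3.86 in *med12* and 64.8 ± 0.815 in *med13* (log2 fold changes 1.40 and 1.09). The other markers did not follow it as a list. By the adjusted p alone, 2 markers rose and 0 fell in *med12*, with a median log2 change of -0.0019. In *med13* 1 rose and 5 fell, with a median of -0.08. Over all features 38.6% passed the adjusted p alone in *med12* and 39.5% in *med13*. The summed level of the 10 markers was 1381 to 1516 CPM in *med12* and 1342 to 1377 in *med13*.

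Several other members moved in the same comparisons, by less than the threshold for a call. *GUN4* was at 38.5, 37.9, 36.6 and 36.5 CPM in Col-0, at 59.1, 57.8, 49.1 and 47.0 in *med12*, and at 46.3, 51.5, 50.2 and 47.6 in *med13*, with no overlap between Col-0 and either mutant, as for 38.3% of all features in *med12* and 41.6% in *med13*. It rose 1.44-fold in *med12* (adjusted p = 7.49e-05) and 1.32-fold in *med13* (adjusted p = 0.000667), which is under the threshold for a call. *CHLH*, the porphyrin-binding subunit, rose 1.34-fold in *med12* and 1.16-fold in *med13*, and *HEMA1* rose 1.27-fold and 1.19-fold. *PORB* rose 1.19-fold and 1.12-fold. *PORC* rose 1.10-fold in *med12* (adjusted p = 0.012), and *CHLI1*, the ATPase subunit, fell by 0.11 on the log2 scale in *med13* (adjusted p = 0.0393), a result lost without any 1 of 6 libraries (adjusted p up to 0.101). So 6 of 9 members passed the adjusted p alone in *med12*, all upwards, and 5 rose and 1 fell in *med13*; over all features 38.6% and 39.5% passed. For *CHLD* and *CHLM* the 95% intervals of the log2 change in *med12* were -0.0407 to 0.0713 and -0.0877 to 0.0566. *PORA* was too sparse to enter this fit. It had 7, 9, 17 and 1 counts in *med12* and 6, 1, 3 and 3 in *med13*, against 0, 2, 1 and 1 in Col-0. Pooled, 34 counts against 4 gave a ratio of 8.28 for *med12* over Col-0, with an exact 95% interval of 2.95 to 32.1 that covers counting error only. For *med13* the ratio was 3.01, and its interval of 0.930 to 12.7 includes equality. One *med12* library held a single count, so the *med12* and Col-0 ranges overlapped.

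The 2 mutants differed from each other in the same direction for each member that passed. Compared directly, 4 of 9 members were lower in *med13* than in *med12* and none was called: *CAO* by 0.31 on the log2 scale (adjusted p = 0.00178), *CHLH* by 0.22, *PORC* by 0.21 and *CHLI1* by 0.11, the last lost without any 1 of 6 libraries (adjusted p up to 0.154). Of all features 5.06% were called and 26.4% passed; 6 members had an unadjusted p under 0.05 in edgeR, and DESeq2 also called 0. Seed storage transcripts also separated these groups. The summed level of 5 seed markers was 1.46 to 8.39 CPM in Col-0, with *ATS1* at 0 in all 4 libraries and the 4 others detected, 33.9 to 380 in *med12* and 31.4 to 690 in *med13*. The 9 root markers summed to 203 to 231, 169 to 250 and 149 to 231 CPM. The part of other cell types in these results was not tested.

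No other gene of the biosynthetic pathway was called in either mutant. Of 21 other genes from glutamate to chlorophyll, 20 were tested in *med12*, where 6 rose, 2 fell and none was called (38.6% of all features passed and 12.8% were called), with a median log2 change of -0.04 against -0.0017 over all features. In *med13* 1 rose and 3 fell. Of 11 chlorophyll breakdown genes, 8 rose and 1 fell in *med12*, with a median of 0.29. The called ones were *SGR2*, a STAY-GREEN family gene (log2 1.55, adjusted p = 4.18e-05), and *CLH2*, a chlorophyllase gene (1.06, adjusted p = 0.0167). In *med13* *SGR2* rose by 1.38 (adjusted p = 0.00012) and *CLH1* fell by 0.68 (adjusted p = 0.0318). Among 9 genes of the heme and tetrapyrrole side branches and their regulators none was called in either mutant.

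The *morc1* mutation alone left the 10 members near their control. In *morc1* against the *SDC:GFP* wild type, *HEMA1* rose by 0.13 on the log2 scale (adjusted p = 0.00179; DESeq2 0.0986), and none of 10 members was called. Over all features 2.57% were called and 11.7% passed, 3 members had an unadjusted p under 0.05 in edgeR, and DESeq2 called 0. *CAO* was at 251, 243, 232 and 247 CPM in the wild type and at 243, 242, 262 and 247 in *morc1*, overlapping ranges with a log2 change between -0.0394 and 0.0889. *PORA* had 51 counts against 35, a ratio of 1.49 (0.9503 to 2.36). Of 19 other pathway genes tested 5 rose and 0 fell by the adjusted p alone, with a median log2 change of 0.09. Of 10 breakdown genes tested 2 fell and 0 rose. None of these was called.

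In the *morc1* background the loss of MED12 raised the same enzyme gene as in the wild type, by less. *CAO* was at 95.04, 96.3 and 90.04 CPM in the *morc1* control and at 139, 135 and 136 in *morc1/med12*, with no overlap, as for 31.8% of all features. It rose 1.45-fold (log2 0.54, standard error 0.0420, adjusted p = 0.000257), just under the threshold for a call. *GUN4* was at 58.7, 53.0 and 48.2 CPM in the control and at 67.0, 66.7 and 64.9 in the double mutant, and rose 1.23-fold (adjusted p = 0.0248). Without any 1 of 4 libraries *GUN4* did not pass (adjusted p up to 0.0883). The other 7 tested members did not pass, and none was called, against 5.48% of all features called and 11.5% passed. In edgeR 3 members had an unadjusted p under 0.05, and DESeq2 called 0. *LHCB2.1* rose by 0.26 on the log2 scale. Of the 10 green-tissue markers 1 passed, upwards, and the list median was -0.06.

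With MED13 lost in *morc1*, the 3 members that passed the test were lower, and 42.4% of all features passed it. *PORB* was at 271, 272, 279 and 278 CPM in the *morc1* control and at 206, 200, 234 and 231 in *morc1/med13*, and fell by 0.33 on the log2 scale (adjusted p = 0.00094). *PORC* was at 184, 194, 195 and 194 CPM in the control and at 167, 172, 149 and 151 in the double mutant, and fell by 0.26 (adjusted p = 0.00252). The groups did not overlap in either gene, nor did they for 40.7% of all features. *GUN4* fell by 0.20, from 136, 133, 141 and 142 CPM to 124, 128, 115 and 113 (adjusted p = 0.0108 in edgeR). In DESeq2 *GUN4* did not pass (adjusted p = 0.0517). *CAO* overlapped between the groups (242 to 262 and 212 to 265 CPM), with a log2 change between -0.207 and 0.0557. None of 9 tested members was called while 18.9% of all features were, and 3 passed while 42.4% did; 4 members had an unadjusted p under 0.05 in edgeR, and DESeq2 called 0. Of the other pathway genes *HEMA2*, a second glutamyl-tRNA reductase gene, was called up (0.67, adjusted p = 0.000832), 9 of 19 fell and the median was -0.13. The breakdown gene *CLH1* fell by 1.82. Seed markers summed to 101 to 1009 CPM in *morc1/med13* and 14.9 to 110 in its control, and green-tissue markers to 2651 to 2832 and 2691 to 2794.

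*ddc* seedlings had less mRNA of 6 members, with the largest falls in *CAO* and *GUN4*, and more *PORB*. *CAO* was at 251, 243, 232 and 247 CPM in the *SDC:GFP* wild type and at 101, 83.4, 97.3 and 96.6 in *ddc*, and fell by 1.36 on the log2 scale (standard error 0.0556, adjusted p = 8.28e-10). *GUN4* was at 139, 130, 134 and 137 CPM in the wild type and at 65.4, 62.2, 70.8 and 80.4 in *ddc*, and fell by 0.94 (0.0693, adjusted p = 1.23e-07). These were the 2 members called, of 9 tested, against 27.3% of all features. *PORC* fell by 0.55, *CHLH* by 0.49, *HEMA1* by 0.48 and *CHLI1* by 0.26, all under the threshold for a call, while *PORB* rose by 0.21 (adjusted p = 0.00419). *PORB* was at 275, 258, 256 and 250 CPM in the wild type and at 319, 269, 317 and 295 in *ddc*, so the ranges overlapped slightly. In all 7 members passed and 56.6% of all features did. The median change of the members was -0.48 against 0.01 over all features. *PORA*, not in this fit, had 51 counts in the wild type and 11 in *ddc*, a ratio of 4.15 for the wild type over *ddc* (2.13 to 8.82, counting error only). *PORA* was called in *ddc* with no filter on low counts (-1.99) and with all 50 libraries in 1 fit (-2.02). With 1 library left out it passed the filter in 5 of 8 fits and was called in those, at -1.72 to -2.49. It passed through the wild type, where it was higher (8 to 19 counts in a library against 1 to 5 in *ddc*). All these fits reuse the same libraries and are not independent support. *PORC* was called without *ddc* replicate 3 (-0.60).

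Of the other pathway genes only *HEMA2* was called in *ddc*, and it was higher. Of 19 tested, 4 rose and 9 fell with a median of -0.09, while 56.6% of all features passed. *HEMA2* rose by 1.02. Of 10 breakdown genes tested, 1 was called up and 4 were called down, while 27.3% of all features were called. *HCAR*, which turns chlorophyll b back towards chlorophyll a, was up by 1.299. The 3 largest falls were those of *CLH1* by 3.25, *CLH2* by 1.68 and *SGRL* by 1.53. Ferrochelatase gene *FC2*, of the heme branch, fell by 0.64 and *HY2*, of phytochrome chromophore synthesis, by 0.70. Green-tissue markers summed to 2428 to 2927 CPM in *ddc* and 2687 to 2889 in the wild type. *LHCB2.1* fell by 0.43, while of the 10 markers 1 passed upwards and 2 downwards, with a median of -0.01.

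In *ddc/med13* several members were higher than in *ddc*. *CAO* was at 220, 202, 173 and 172 CPM in *ddc/med13*, above all 4 *ddc* libraries (83.4 to 101) and below all 4 of the *SDC:GFP* wild type. It rose 2.05-fold over *ddc* (log2 1.04, standard error 0.0879, adjusted p = 1.54e-05). *GUN4* reached 108, 104, 97.9 and 85.0 CPM, also without overlap (32.8% of all features), and rose 1.43-fold (adjusted p = 0.0015). *HEMA1* rose 1.25-fold, *CHLH* 1.19-fold and *PORC* 1.15-fold (adjusted p = 0.0403, up to 0.11 with 1 library left out). *PORB*, the member that was higher in *ddc*, had a log2 change between -0.223 and 0.0150. *CAO* was the 1 member called of 9 tested (15.0% of all features) and 5 passed (32.8%). The breakdown genes *CLH1* (1.46), *SGRL* (0.95) and *SGR1* (0.62) rose and *HCAR* (-0.77) fell, and *HY2* rose by 0.66; this comparison and that of *ddc* with the wild type share the *ddc* libraries.

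**Figure D2:**
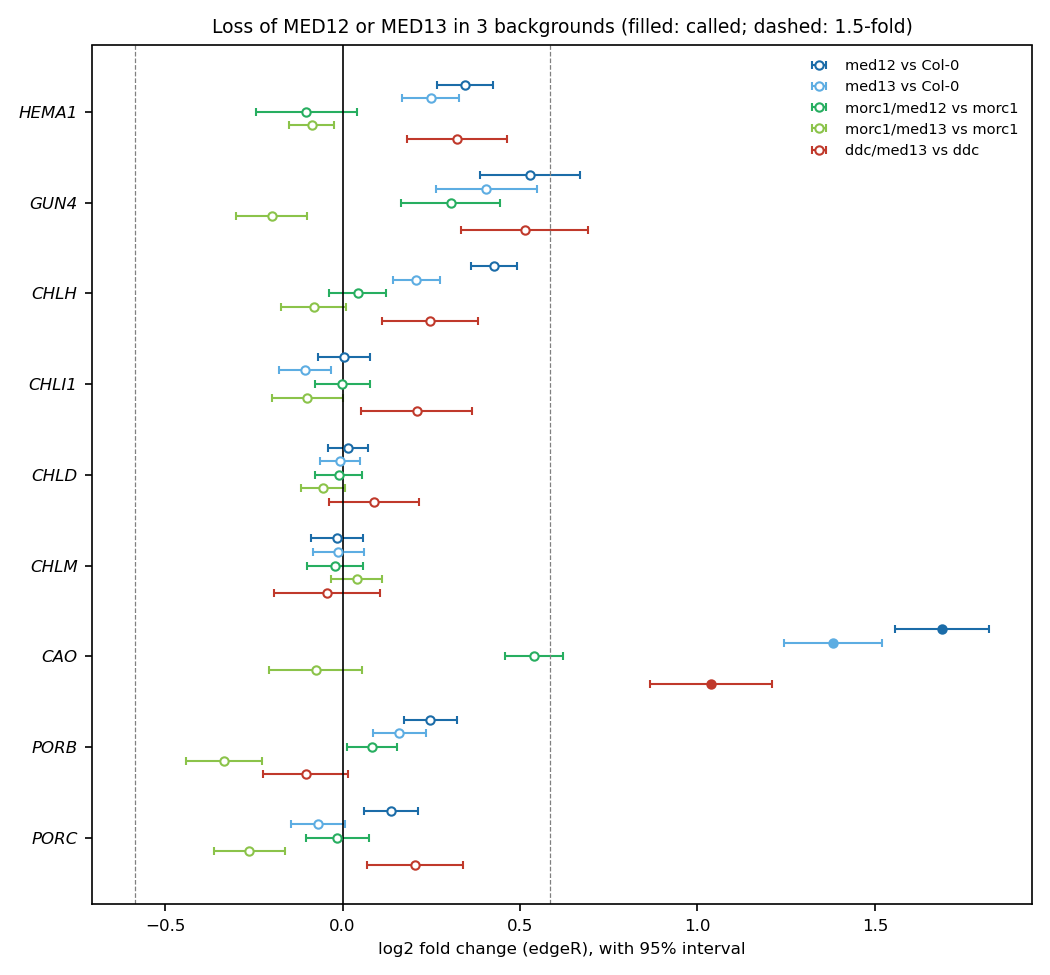
Log2 fold change with its 95% interval for 9 members (all but *PORA*) in 5 comparisons, told apart by colour. From top to bottom within each gene these are *med12* and *med13* against Col-0, *morc1/med12* and *morc1/med13* against *morc1*, and *ddc/med13* against *ddc*. Filled points were called and dashed lines mark 1.5-fold. *CAO* is the only filled member, in 3 of the 5 comparisons, and *PORB* and *PORC* are below 0 only in *morc1/med13* beyond their intervals.

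Whether the effect of a MED12 or MED13 mutation depended on the background was tested in a single fit of all 50 libraries. The increase of *CAO* by *med12* was smaller in *morc1* than in the wild type by 1.13 on the log2 scale (standard error 0.107, adjusted p = 3.23e-10), the 1 member of 10 called (6.29% of all features). *HEMA1* (-0.42) and *CHLH* (-0.36) also passed, making 3 of 10 against 13.9%. The *med13* effect on *CAO* was smaller in *morc1* by 1.44 (0.0969, adjusted p = 5.3e-15), and that on *GUN4* by 0.59 (0.0911, adjusted p = 3.75e-06). These 2 were called (9.70% of all features), and *HEMA1*, *CHLH*, *PORB* and *PORC* passed too, 6 of 10 against 23.8%, all lower in *morc1*, *PORC* at an adjusted p of 0.0498 that rose to 0.121 with 1 library left out. *GUN4* lies so close to the 1.5-fold threshold that leaving out any 1 of 8 libraries ended its call, at -0.56 to -0.58. The *med13* effect differed between *ddc* and the wild type in 4 of 10 members without a call, lower for *CAO* (-0.34) and *PORB* (-0.26) and higher for *CHLI1* (0.31) and *PORC* (0.27). Over all features 11.5% were called there and 27.1% passed; 4 members had an unadjusted p under 0.05 in edgeR, and DESeq2 called 0. Allele, library set, depth and the starting level of *CAO* differ with the background. *CAO* stood at 34.8 ± 0.905 CPM in Col-0 but at 243 ± 8.31 in the *SDC:GFP* wild type, which also has unmutated *MED12* and *MED13*. *LHCB2.1* differed in the same direction in these tests (-1.13, -1.05 and -0.83). The green-tissue markers did not as a list. In each test 1 of the 10 passed, downwards, and the list medians were -0.05, 0.12 and -0.01.

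After 24 h of darkness Col-0 seedlings held *PORA* mRNA, which was almost missing in long days, and less *PORC*. *PORA* went from 0, 2, 1 and 1 counts in the long-day libraries to 319, 281 and 313 in the dark ones, and *PORC* from 100, 92.4, 96.6 and 101 CPM to 35.2, 36.0 and 36.7. *PORB* stayed at 147, 149 and 149 CPM, inside the long-day range of 134 to 153. The *PORA* ratio was 287 with an exact 95% interval of 112 to 1056, set by the 4 long-day counts. *PORC* fell by 1.44 on the log2 scale (standard error 0.0446, adjusted p = 1.51e-13). *CAO* rose 3.40-fold to 116, 118 and 121 CPM (log2 1.77, 0.0670, adjusted p = 1.74e-12), and *GUN4* rose 1.65-fold to 62.3, 61.2 and 61.4 (0.72, 0.0663, adjusted p = 8.28e-08). In none of *PORA*, *PORC*, *CAO* and *GUN4* did dark and long-day libraries overlap, but 62.6% of all features did not overlap either. These were the 4 members called, of 10 tested, against 20.5% of all features. *HEMA1* rose 1.38-fold and *CHLH* 1.14-fold, while *CHLI1* fell by 0.40 and *CHLD* by 0.11, so that 8 passed, against 56.2%. The dark and the long-day libraries are different sets, so set and treatment cannot be told apart. With the dark libraries summed, *CHLH* (adjusted p = 0.0563) and *CHLD* (0.0913) no longer passed and the same 4 genes were called. *LHCB2.1* rose by 1.43 with *CAO*, while 7 of the 10 green-tissue markers fell. Their sum was 1272 to 1317 CPM in the dark and 1355 to 1475 in long days, and root markers summed to 200 to 229 and 203 to 231.

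In *med12* *PORA* was again high and *PORC* low in the dark, but *CAO* and *GUN4* stood near their dark level already in long days. *CAO* was at 122, 118, 107 and 97.6 CPM in long days and at 126, 124 and 122 in the dark, and *GUN4* at 47.0 to 59.1 and 52.7 to 55.7. *PORA* had 256, 201 and 216 counts in the dark, a ratio of 24.0 over the 34 counts of *med12* in long days (17.0 to 34.9). *PORC* fell by 0.91 (standard error 0.0381, adjusted p = 6.79e-12), from 112, 106, 102 and 105 CPM to 57.2, 57.9 and 56.4. *PORA* and *PORC* were the 2 members called (19.1% of all features). *PORB* fell by 0.30, *CHLI1* by 0.25 and *CHLH* by 0.23, and *HEMA1* (0.16) and *CAO* (0.14) rose, 7 passing in all (53.9%). With the dark libraries summed, *HEMA1* (adjusted p = 0.108) and *CAO* (0.24) did not pass.

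The difference between the genotypes was tested directly, and a shift common to a library set cancels in it. The dark change of *CAO* was smaller in *med12* by 1.62 on the log2 scale (standard error 0.0850, adjusted p = 1.87e-09), that of *GUN4* by 0.71 (0.0907, adjusted p = 2.59e-05), and that of *PORA* by 3.45 (0.730, adjusted p = 0.00227). These 3 of 10 members were called, against 9.06% of all features. The fitted *PORA* value rests on the 4 counts of Col-0 and the 34 of *med12* in long days. *CHLH* (-0.41), *PORB* (-0.35) and *HEMA1* (-0.31) passed in the same direction, and *PORC* (0.53) and *CHLD* (0.15) in the other, 8 of 10 against 23.5%. With the dark libraries summed the same 3 were called (adjusted p = 4.66e-10, 0.000914 and 0.00945), and *HEMA1* (0.0919) and *CHLD* (0.29) no longer passed. In the dark *CAO* was at 116 to 121 CPM in Col-0 and 122 to 126 in *med12*, whereas in long days it was at 33.6 to 35.9 and 97.6 to 122.

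**Figure D3:**
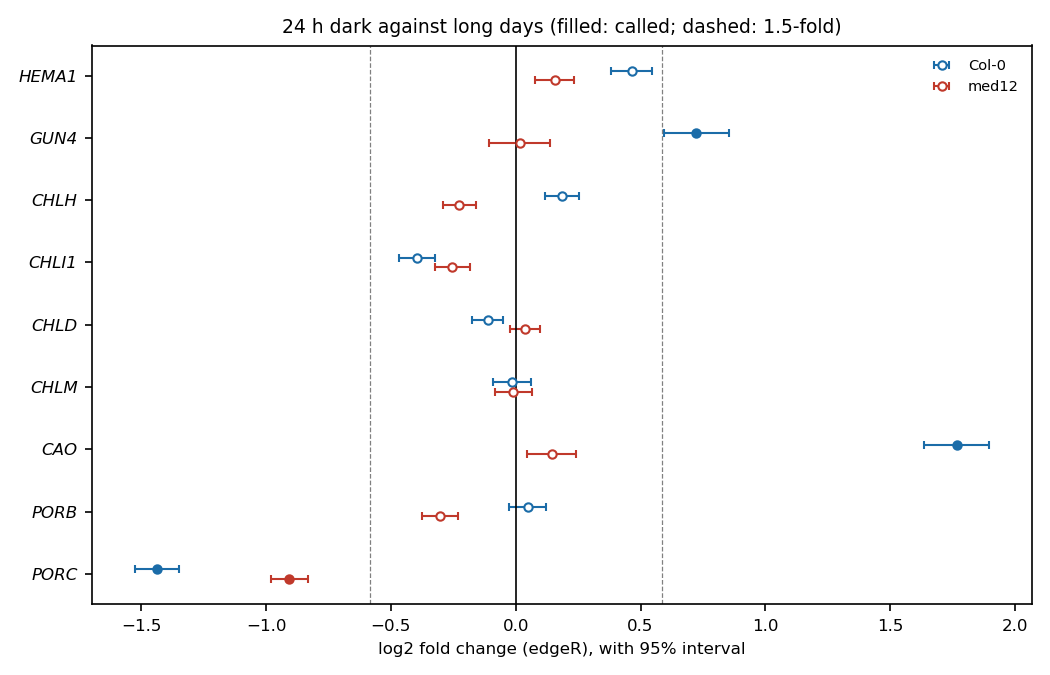
Log2 fold change of dark over long days with its 95% interval for 9 members (all but *PORA*), in Col-0 and in *med12*. *CAO* is at 1.77 in Col-0 and 0.14 in *med12*, *GUN4* at 0.72 and 0.02, and *PORC* is below 0 in both, at -1.44 and -0.91.

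Within darkness *med12* kept more *PORC* mRNA than Col-0. *PORC* was at 35.2, 36.0 and 36.7 CPM in Col-0 and at 57.2, 57.9 and 56.4 in *med12*, rose 1.59-fold (log2 0.67, standard error 0.0463, adjusted p = 3.28e-16), and was the 1 member of 10 called (13.4% of all features). With the dark libraries summed its value was 0.68 (adjusted p = 1.06e-05). *PORA* was at 47.6, 44.3 and 47.7 CPM in Col-0 and at 36.4, 29.8 and 30.3 in *med12*, and fell by 0.53 (adjusted p = 2.91e-10). The groups did not overlap, as for 59.1% of all features, and a single library decides whether *PORA* is called: without *med12* dark replicate 1 it was, at -0.63. *CHLD* (0.16) and *CHLI1* (0.14) rose and *GUN4* (-0.18) and *PORB* (-0.11) fell, 6 of 10 passing against 43.0%. Summed, *PORC* alone passed, with *PORA* at an adjusted p of 0.516 and *CHLD* at 0.0951. *PORA* was sparse in the groups that set the spread of the summed test, so that value cannot decide its difference in the dark. *CAO* had a log2 difference between 0.00910 and 0.121. Of 20 other pathway genes 13 rose and 1 fell, none of them called, with a median of 0.16 against 0.00 over all features. Seed markers summed to 158 to 315 CPM in *med12* and 0.914 to 2.21 in Col-0.

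After 15 min of light the 3 oxidoreductase genes were the only members that passed the test in Col-0. In Col-0 *PORA* was at 38.2, 37.0 and 37.2 CPM after light against 44.3 to 47.7 in the dark, and fell by 0.32 on the log2 scale (adjusted p = 0.00018). *PORC* was at 44.0, 43.9 and 45.9 against 35.2 to 36.7, and rose by 0.30 (adjusted p = 0.000522). *PORB* fell by 0.12 (adjusted p = 0.0129, up to 0.136 with 1 library left out), from 147 to 149 down to 132 to 141. Dark and light libraries did not overlap for any of these 3 genes, as for 34.3% of all features. None of 10 members was called (2.88% of all features) and 3 passed (12.7%), which were also the 3 with an unadjusted p under 0.05 in edgeR; DESeq2 called 0. With the libraries summed none passed, *PORC* coming closest at an adjusted p of 0.296. After 15 min *PORA* still stood far above its long-day level, at a ratio of 231 (89.9 to 851).

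In *med12* light moved no member past the test. *PORA* was at 33.99, 29.4 and 28.7 CPM after light against 29.8 to 36.4 in the dark, *PORC* at 61.1, 54.7 and 54.4 against 56.4 to 57.9, and *PORB* at 142, 137 and 135 against 136 to 139, all overlapping, while 30.1% of all features did not overlap. None was called (1.77% of all features) and none passed (6.75%); 2 members had an unadjusted p under 0.05 in edgeR, and DESeq2 called 0. The 95% intervals were -0.198 to 0.0593 for *PORA* and -0.0915 to 0.0709 for *PORC*. The difference of the light changes between *med12* and Col-0 was -0.32 for *PORC* (standard error 0.0645, adjusted p = 0.0632), 0.25 for *PORA* and 0.13 for *PORB*, and none of 10 members passed it. Of all features 0.505% were called and 1.04% passed; 3 members had an unadjusted p under 0.05 in edgeR, and DESeq2 called 0. A difference in light response between the genotypes was therefore not shown for these genes.

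**Figure D4:**
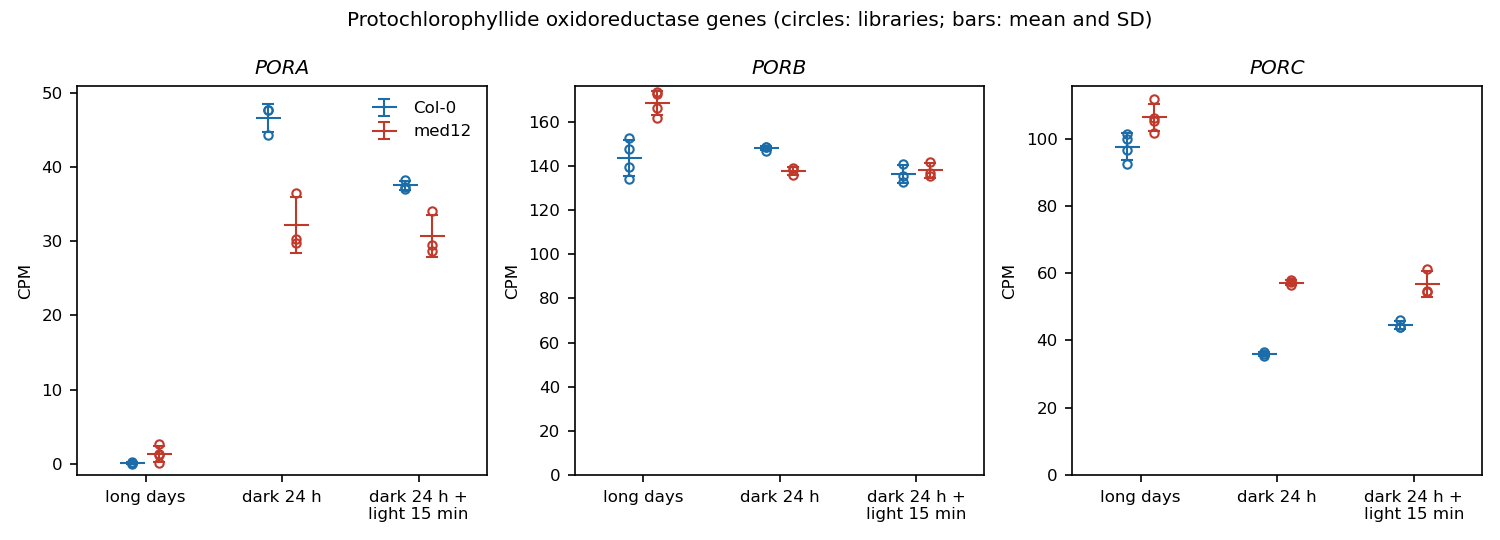
Levels of *PORA*, *PORB* and *PORC* in CPM in Col-0 and *med12* in long days, in the dark and after the brief light, 1 point per library with the group mean. *PORA* is near 0 in long days and at 28.7 to 47.7 CPM in the dark and after light, *PORC* is highest in long days in both genotypes, and *PORB* stays between 132 and 173 CPM.

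After light *med12* again had more *PORC* than Col-0, and less *PORA* in the reported fit. *PORC* was at 54.4 to 61.1 CPM in *med12* and 43.9 to 45.9 in Col-0 and rose by 0.35 (adjusted p = 4.57e-07), and *PORA* fell by 0.29 (adjusted p = 0.00103). *PORA* did not pass with all 50 libraries in 1 fit (adjusted p = 0.227) or summed (0.774). The summed value cannot decide, because *PORA* was sparse in the groups that set its spread. *CHLD* (0.24), *CHLI1* (0.21) and *CHLH* (0.07) rose and *GUN4* (-0.13) fell; *CHLH* and *GUN4* were lost with 1 library left out (adjusted p up to 0.084 and 0.128). None of 10 was called (14.2% of all features) and 6 passed (43.3%), the same 6 that had an unadjusted p under 0.05 in edgeR; DESeq2 called 0. Summed, *PORC* (0.38, adjusted p = 0.00692) and *CHLD* (0.27, adjusted p = 0.00793) passed. *CAO* was at 116 to 121 CPM in Col-0 and 116 to 120 in *med12*.

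Most other genes of the pathway were lower in the dark than in long days. In Col-0, 3 of 20 rose and 15 fell, with a median log2 change of -0.33 against -0.0026 over all features, of which 56.2% passed. Of the 20 genes 4 were called, a share near the 20.5% of all features, and all were down. These were *DVR*, the divinyl reductase gene (-1.38), *HEMD*, for uroporphyrinogen III synthase (-0.75), *GSA2*, for glutamate 1-semialdehyde aminotransferase (-0.70), and 1 more. In *med12* 2 rose and 14 fell (53.9% of all features passed), with *DVR* alone called (-1.07; 19.1% of all features). *FC2* fell by 1.25 in Col-0 and by 0.96 in *med12*, and *LIL3:1*, for a light-harvesting-like protein, by 0.79 in Col-0. Breakdown genes went both ways in Col-0. *SGR2* (1.74) and *SGR1* (0.76) rose, and *CLH1* (-2.73), *HCAR* (-0.85) and *RCCR* (-0.72) fell, while in *med12* 4 were called down (*CLH1* at -2.64, *RCCR* at -1.02, *HCAR* at -0.98 and 1 more) and none up. *FC1* fell by 0.70 in *med12*.

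Chlorophyllase gene *CLH1* was the breakdown gene called in the most comparisons. It was lower in *med13* than in *med12* (log2 -1.13, adjusted p = 0.00257) and lower in *morc1/med12* than in its *morc1* control (-0.83, adjusted p = 0.0191). In Col-0 it rose by 0.91 with light (adjusted p = 2.08e-05), and its light change in *med12* differed from that in Col-0 by -0.82 (adjusted p = 0.047). Both p-values cover about counting error only, and *CLH1* had at most 41 counts in a Col-0 dark library. With the dark and light libraries summed, the features called for the difference of the light changes went from 107 to 0. The call of *CLH1* for that difference was therefore lost. The change from long days to dark in *med12* minus that in Col-0 was -1.89 for *SGR2* and -0.68 for *SGR1*.

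A few of these genes also differed between backgrounds in their response to the Mediator mutations. The *med12* change in *morc1* minus that in the wild type was -1.25 for *CLH1* and -0.72 for *FC1*. These were 1 of 11 breakdown and 1 of 9 branch genes, with 0 of 20 other pathway genes, against 6.29% of all features called. For *med13* the same difference was -1.13 for *CLH1*, -1.27 for *CLH2* and 0.67 for *HEMA2* in *morc1*. Called there were 2 of 11 breakdown, 0 of 9 branch and 1 of 20 other pathway genes, against 9.70%. In *ddc* the *med13* difference was 2.14 for *CLH1*, 0.86 for *SGRL*, -0.66 for *HCAR* and 0.74 for *HY2*. Of 11 breakdown genes 2 were called up and 1 down, with 1 of 9 branch and 0 of 20 other pathway genes, against 11.5%. The *morc1* and *ddc* libraries belong to other sets than the wild-type ones, so set and background cannot be told apart.

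The members whose levels ran most alike were found from the 14 group means of log2(CPM + 1). Pearson's r was 0.965 for *CHLI1* and *CHLD*, 0.958 for *HEMA1* and *GUN4* and 0.956 for *CHLH* and *CHLM*. *CAO* was most like *GUN4* (0.913) and little like *PORC* (0.386), and *PORA* and *PORC* ran opposite (-0.791). The points share library set and depth, so these are descriptions and carry no p.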

How the data were processed

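Total RNA of whole seedlings was made into stranded mRNA libraries and sequenced as single-end reads of 50 bases. Per the labels and methods, the authors used Trim Galore for trimming, STAR for alignment to TAIR10 and Picard to drop PCR duplicates, and they deposited whole-number counts per Araport11 gene or transposable element from HTSeq 0.6.1 (reverse-stranded, union mode), not normalized. The submitters' processing notes also name FastQC and DESeq2. The summary rows that HTSeq adds (3.03 to 5.81% of counts, in 44 of 50 files) were left out.

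Groups came from the labels. The counts were tested in R 4.3.3 with edgeR 4.0.16 (filterByExpr by group, TMM, quasi-likelihood F-test, Benjamini-Hochberg adjustment over all features tested), and a feature was called at more than 1.5-fold with an adjusted p under 0.05. The standard error is the size of the log2 change divided by the square root of F, and 95% intervals are normal. CPM used TMM factors over all 50 libraries. *PORA* ratios came from pooled counts with exact conditional intervals. A fit was checked on simulated counts. Alternatives were DESeq2 1.42.0, RLE in place of TMM scaling, no filter on low counts, the 2 groups alone and all 50 libraries in 1 fit. Others were the replicate number as a block, each library left out and Col-0 as control for *morc1*. Chosen after seeing the data were dark and light libraries summed by group and a block for the *med13* effects between backgrounds. Promoters and coding sequences were read with Python 3.11.15 and Biopython 1.88 from TAIR10.1. All 10 members are described; of the other gene lists the called genes are named, at most 3 per direction and list, and *LHCB2.1* was singled out after its values were seen. The members and lists were chosen with earlier results of these data known. The methods call each library a biological replicate of 5 pooled seedlings and say that the plants were raised and harvested together. Outside the light experiment p-values therefore measure the spread between such pools of 1 growth. In the dark and light groups the libraries differed for most genes by no more than about counting noise. There p-values cover about counting error only.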

Additional observations from a re-analysis of the deposited data

Results flagged for a closer look

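Of 80 gene and group combinations with 4 libraries each, 2 held a library that stood apart from the other 3 by Dixon's criterion, which chance alone passes in about 1 of 20 groups. *CHLD* in *med13* replicate 1 was at 199.5 CPM with the others at 195.7 to 196.2, and *PORC* in replicate 1 of the *morc1* control for *morc1/med13* was at 184 CPM with the others at 194 to 195. The dark change differed between *med12* and Col-0 for *GUN4* (-0.71 on the log2 scale), *CAO* (-1.62) and *PORA* (-3.45), each called by the test of the difference. The *med12* effect on *CAO* differed between *morc1* and the wild type (-1.13), and so did the *med13* effect on *GUN4* (-0.59) and *CAO* (-1.44).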

How the results depend on the processing

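Of 2708 log2 changes of single members under the alternatives, for members tested in the comparison as reported, 2688 stayed on their side of the call, 12 gained it, 8 lost it and 0 reversed. *PORA*, where it was too sparse for the reported fit, was tested under 19 alternatives and called in 10, of which 7 were for *ddc*, 2 for *med12* against Col-0 and 1 for *med13* against *med12*. These alternatives reuse the same libraries, so their number is not independent support. The number of members called was 2 in place of 1 for *med12* against Col-0 with no filter and with all 50 libraries in 1 fit, where *PORA* was added (log2 2.92 and 2.87), and 1 in place of 0 for *med13* against *med12* in that single fit (*PORA*, -1.41). With Col-0 in long days as the control for *morc1*, 8 members were called in place of 0, a comparison across sets of unequal depth and with the transgene on one side only. Leaving out 1 library at a time gave 2 to 4 members called for *ddc* against the *SDC:GFP* wild type, 1 to 2 for *ddc/med13* against *ddc* (*GUN4* at 0.59 without *ddc* replicate 4), 1 to 2 for *med12* against Col-0 in the dark, 1 to 2 for the *med12* effect in *morc1* minus that in wild type (*PORA* without *med12* replicate 4) and 1 to 2 for the *med13* effect in *morc1* minus that in wild type. Apart from calls, 13 of 85 adjusted p-values of members under 0.05 rose above it with some library left out. Over all features the calls for 15 min of light went from 610 to 338 in Col-0 and from 375 to 116 in *med12* with all 50 libraries in 1 fit, and to 71 and 23 with the dark and light libraries summed. Summed, they went from 2841 to 1073 for *med12* against Col-0 in the dark, from 3003 to 1133 after light, and from 1932 to 715 for the genotype difference of the dark change. For the genotype difference of the light change, 107 became 38 with DESeq2, 5 in the single fit and 0 summed. DESeq2 gave 230 in place of 375 for light in *med12* and 320 in place of 495 for *morc1*, which with Col-0 as control had 4694. The cause was not tested. Same-numbered replicates did not deviate together (r from -0.383 to 0.22), and with the replicate number as a block the members called stayed at 1 for *med12* and for *med13* against Col-0, 0 for *morc1*, 2 for *ddc*, 1 for *ddc/med13*, 0 for *morc1/med13*, 4 and 2 for dark against long days, 3 for their difference, and 2 and 0 for the *med13* effect in *morc1* and in *ddc* minus that in the wild type, a fit chosen after seeing the data. No paired analysis was possible for *morc1/med12* against *morc1* or for the *med12* effect between backgrounds because that *morc1* control has replicate numbers of its own. The rank of a member by level depended on length: *CHLH* was first in CPM and *PORB* per kilobase.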
